A study of Mus musculus with 48 samples.

Results

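The effect of a hindlimb cast on tibial bone was described in NZO/HlLtJ, an inbred mouse strain that becomes obese and prone to diabetes. Its 6 libraries, of 48 in the series, are the immobilized left tibiae of mice 4, 5 and 6 and the control right tibiae of the same mice, taken as their labels name them. All mice of the series were males of 19 weeks from 8 inbred strains, and each wore a cast on the left hindlimb for 3 weeks. RNA came from the tibial metaphysis, the flared part of the bone next to the growth plate, and was read as stranded mRNA libraries. The control limb is therefore the uncast leg of a cast animal, and no limb of a mouse without a cast is among the groups used here. Because every cast limb was a left limb, side and cast cannot be told apart.

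Bone is renewed by osteoclasts, which dissolve mineral and matrix, and osteoblasts, which lay down type I collagen and mineralize it, with osteocytes inside the matrix relaying load. Removing load is known to favour resorption. A dissected metaphysis can also hold marrow, which carries blood-forming cells and fat, a rim of growth plate cartilage, and shreds of attached muscle. In bulk RNA of this kind, fewer cells of a type and less RNA per cell cannot be told apart.

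The immobilized libraries were deeper than all control libraries of the strain, at 13410118 to 14744056 counts, against 7746981 to 7857780 in control limbs. The other usable libraries held 5253408 to 12959552 counts. The control limb of mouse 4 stood apart from the other 5 libraries. Its 15 measured red cell precursor genes summed to 757 CPM (read counts scaled to equal library totals), against 37840 to 104900 in the others, and it was the lowest of the 6 for 15 of 15 erythroid, 16 of 16 neutrophil, 11 of 11 megakaryocyte and 15 of 16 B cell genes. It was the highest for 14 of 15 fibrous tissue, 18 of 19 collagen processing, 12 of 16 osteoclast and 12 of 16 inflammation genes. The main lists, and the genes most affected by this library, are therefore also given without mouse 4.

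Of 16882 genes tested, 1 differed between immobilized and control limbs at a false discovery rate (FDR) of 0.05 in edgeR's quasi-likelihood test with Benjamini-Hochberg adjustment, or 0.00592%. An unadjusted p under 0.05 was reached by 367 genes, 179 higher and 188 lower, which is 2.17% of those tested. The median log2 change of all genes was 0.03, and the median size of a change regardless of sign was 0.15. The same quantity was 0.18 to 0.38 in the 6 other strains with 3 pairs, and 0.17 in NZO/HlLtJ without mouse 4. DESeq2, with the same paired design, called 18 genes, 10 higher and 8 lower, among them Col2a1, Col9a2, Col9a3, Ihh and Matn3 of the cartilage list, while the 8 lower genes (Myh1, Myh2, Myh8, Mybpc1, Actn2, Tnnt2, Myom3 and Mb) encode sarcomere proteins and myoglobin. Without mouse 4, the same gene alone of 16827 passed in edgeR, 1 gene or 0.00594%, and 526 had an unadjusted p under 0.05, of which 444 were higher. For a single value, a sign-flip test over 3 pairs cannot give a 2-sided exact p below 0.25.

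The gene called was Gm4070 (chromosome 7, 105895139 to 105953967, minus strand, GRCm38), a protein-coding gene that RefSeq lists under the synonym VLIG-1, a name of the very large GTPases induced by interferon. It had 20, 78 and 230 counts in the immobilized limbs of mice 4, 5 and 6, and 0 counts in all 3 control limbs. On the CPM scale the immobilized limbs had 1.34, 5.42 and 15.6, while the limit that a count of 0 allows in a control library, 3 counts, is 0.385. Every immobilized limb lay above every control limb, by an amount that differed more than 10-fold between mice. Against that floor its mean was at least 19.4-fold higher (edgeR FDR 0.000297), and 0.000694 was its FDR without mouse 4. The call was lost without mouse 6, which carried most of the reads (FDR 0.0647), and when the 6 libraries of the strain were fitted alone (FDR 1, 0 genes called).

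Gm4070 lies in a cluster of similar genes, so its reads and those of its neighbours cannot be told apart with certainty. Gvin1 (chromosome 7, 106156556 to 106215326), further along the chromosome, encodes a very large interferon-inducible GTPase. It had 37.0, 29.0 and 13.3 CPM in immobilized limbs, against 31.9, 38.4 and 38.4 CPM in control limbs. The immobilized limb with the most Gm4070 reads thus had the fewest Gvin1 reads, and Gvin1 itself overlapped between limbs (log2 change -0.56 ± 0.59, edgeR FDR 1). Among the 18 interferon-stimulated genes listed, 0 passed the FDR, 2 were above 0, and the median log2 change was -0.19. Other genes without a count in these control limbs also had a few reads on the immobilized side: Gm6768 had 9, 0 and 19 counts in immobilized limbs and Gm12191 had 0, 11 and 2, with medians of 189 and 137 CPM in other strains. Whether such reads, or those of Gm4070, were carried over from other libraries was not tested. In other strains Gm4070 was read in both limbs. C57BL/6J, the strain of the reference genome, averaged 36.7 ± 12.7 CPM in immobilized limbs and 30.3 ± 5.97 CPM in control limbs (SD, n = 3 each), and PWK/PhJ averaged 0.714 ± 0.284 CPM in immobilized limbs and 0.815 ± 0.775 CPM in control limbs.

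**Figure D1:**
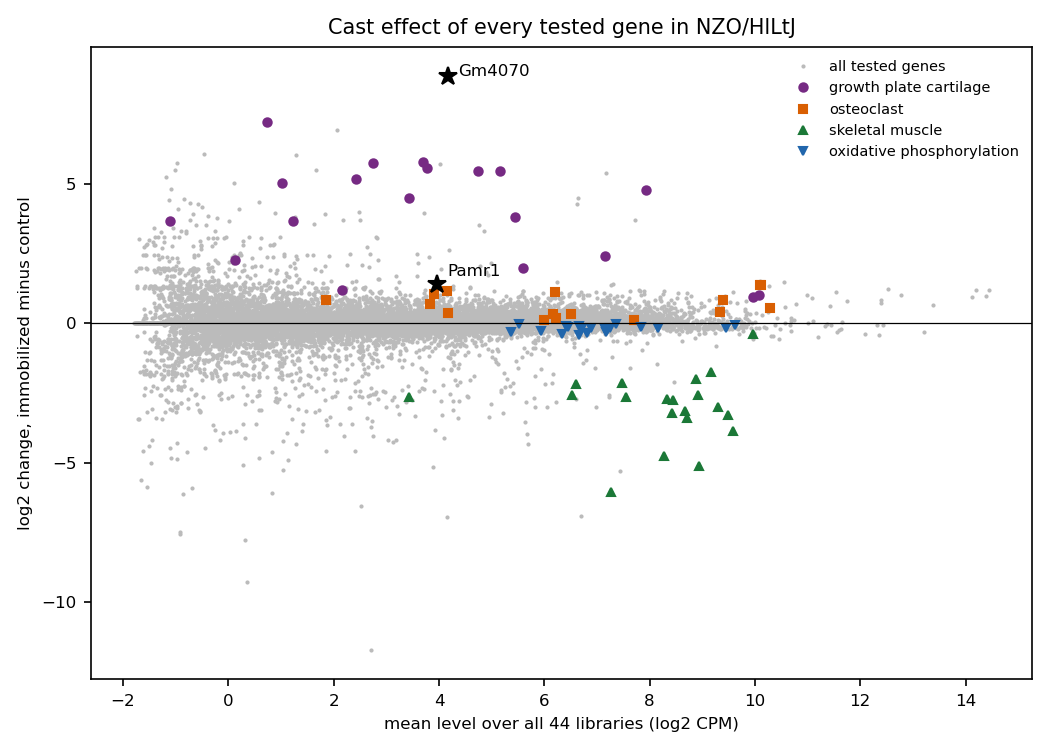
Log2 change, immobilized minus control, of every tested gene in NZO/HlLtJ (vertical axis) against its mean log2 CPM over the 44 fitted libraries (horizontal axis), with 4 gene lists in colour and Gm4070 and Pamr1 as stars. Cartilage genes lie above 0, muscle genes below 0, and respiratory chain genes just below 0. The height of Gm4070 depends on the small constant added to its control counts of 0.

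Genes of the growth plate, the cartilage at which long bones lengthen, had the largest median among the 33 lists. All 19 measured members had a log2 change above 0, with a median of 4.47 beside 0.03 for all genes, and 4.37 without mouse 4. None of the 19 passed the FDR in edgeR, and 13 had an unadjusted p under 0.05. In 9 of 19 members all immobilized limbs lay above all control limbs, as was the case for 383 of all 16882 genes, or 2.27%. The list summed to 4879, 5461 and 856 CPM in immobilized limbs, against 1826, 229 and 803 CPM in control limbs. Its score, the mean log2 CPM of the members, was higher in the immobilized limb of mice 4, 5 and 6 by 3.33, 5.35 and 1.68. Matn1, whose mean levels were at or under the limit of 3 counts in both groups, gives no fold, and the median of the 18 others was 4.63.

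The matrix genes of this tissue come first. Col2a1 (chromosome 15, 97975602 to 98004695), the main cartilage collagen, had 1523, 1577 and 184 CPM in immobilized limbs, against 9.62, 35.5 and 123 CPM in control limbs. The groups did not overlap, but the immobilized limb of mouse 6 was close to its control. The log2 change was 4.78 ± 1.41 (SE, 3 pairs, edgeR FDR 1), and DESeq2 gave 4.84 ± 0.92 with an FDR of 0.00099. Without mouse 4 it was 2.98 ± 1.51. Acan (chromosome 7, 79053483 to 79115099), encoding the proteoglycan aggrecan, had 210, 311 and 22.8 CPM in immobilized limbs, against 69.4, 0.384 and 2.55 CPM in control limbs. Each mouse was higher on the immobilized side, although the control limb of mouse 4 exceeded the immobilized limb of mouse 6 (log2 change 3.81 ± 1.38, edgeR FDR 1, and 5.92 ± 1.88 without mouse 4). Col9a3, a chain of the collagen that coats type II fibrils, had 103, 167 and 10.7 CPM in immobilized limbs, against 1.36, 1.03 and 1.28 CPM in control limbs. The smallest immobilized value was thus several times the largest control value. Col9a2, another chain of that collagen, did not overlap either, at 7.07 to 87.1 CPM in immobilized limbs and 1.15 to 3.85 CPM in control limbs. Hapln1, the link protein that fixes aggrecan to hyaluronan, had 111, 504 and 17.3 CPM in immobilized limbs, against 11.9, 0.256 and 0.638 CPM in control limbs. Epyc, a small leucine-rich proteoglycan, and Lect1, encoding the chondrocyte protein chondromodulin, also separated the limbs.

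Col10a1, the collagen of hypertrophic chondrocytes, had 93.0, 685 and 6.19 CPM in immobilized limbs, against 9.73, 1.15 and 0.383 CPM in control limbs. All mice were higher on the immobilized side, with an overlap between mice 6 and 4 (log2 change 5.46 ± 2.11, edgeR FDR 1, and 8.48 ± 3.27 without mouse 4). Ihh (chromosome 1, 74945315 to 74951672), the hedgehog ligand made by prehypertrophic chondrocytes, had 4.64, 16.5 and 0.816 CPM in immobilized limbs, against 0.905, 0.256 and 0.128 CPM in control limbs. It had the smallest unadjusted p of the list, 0.000285, with a log2 change of 3.66 ± 0.82 (edgeR FDR 0.687, DESeq2 FDR 0.0248) and 5.06 ± 1.09 without mouse 4. Sox9, the transcription factor of the chondrocyte lineage, had 8.94, 16.3 and 1.70 CPM in immobilized limbs, against 8.71, 0.897 and 1.79 CPM in control limbs. Only mouse 5 showed a clear gap for Sox9 (log2 change 1.17 ± 0.82). Col11a1 and Col11a2, fibrillar collagen chains made in bone as well as cartilage, had log2 changes of 0.92 ± 0.74 and 1.02 ± 0.54 and overlapped.

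The windows before the starts of Matn3 and Ihh are shown because these members of the cartilage list were called by DESeq2 and have a single start in the RefSeq table (build GRCm38.p6) that is also the start of the gene in GENCODE. Matn3 (chromosome 12, 8947929 to 8972028) encodes the cartilage matrix protein matrilin, and had 48.9, 69.9 and 4.49 CPM in immobilized limbs, against 4.19, 0.128 and 0.128 CPM in control limbs. Each window holds the 250 bases upstream, 5′ to 3′ on the gene's strand, and capitals mark ACAAT or, on the other strand, ATTGT, the core letters of motifs bound by SOX factors.
Matn3, chr12:8947679-8947928, plus strand: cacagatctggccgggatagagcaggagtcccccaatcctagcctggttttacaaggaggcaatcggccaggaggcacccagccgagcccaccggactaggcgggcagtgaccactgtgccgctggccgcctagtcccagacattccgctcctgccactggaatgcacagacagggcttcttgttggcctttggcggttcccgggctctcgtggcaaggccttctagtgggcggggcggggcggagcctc
Ihh, chr1:74951673-74951922, minus strand: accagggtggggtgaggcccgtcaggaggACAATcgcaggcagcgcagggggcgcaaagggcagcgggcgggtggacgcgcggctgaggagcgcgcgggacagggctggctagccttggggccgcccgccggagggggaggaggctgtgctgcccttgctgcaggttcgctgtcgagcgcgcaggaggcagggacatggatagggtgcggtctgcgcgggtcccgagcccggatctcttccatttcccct
The Ihh window holds ACAAT once and the Matn3 window holds neither form. Of 13 cartilage list genes with a single start in that table, 2 had a match in the window, against 28.3% of all 27025 genes with a promoter entry. These are counts of letters and say nothing of binding.

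**Figure D2:**
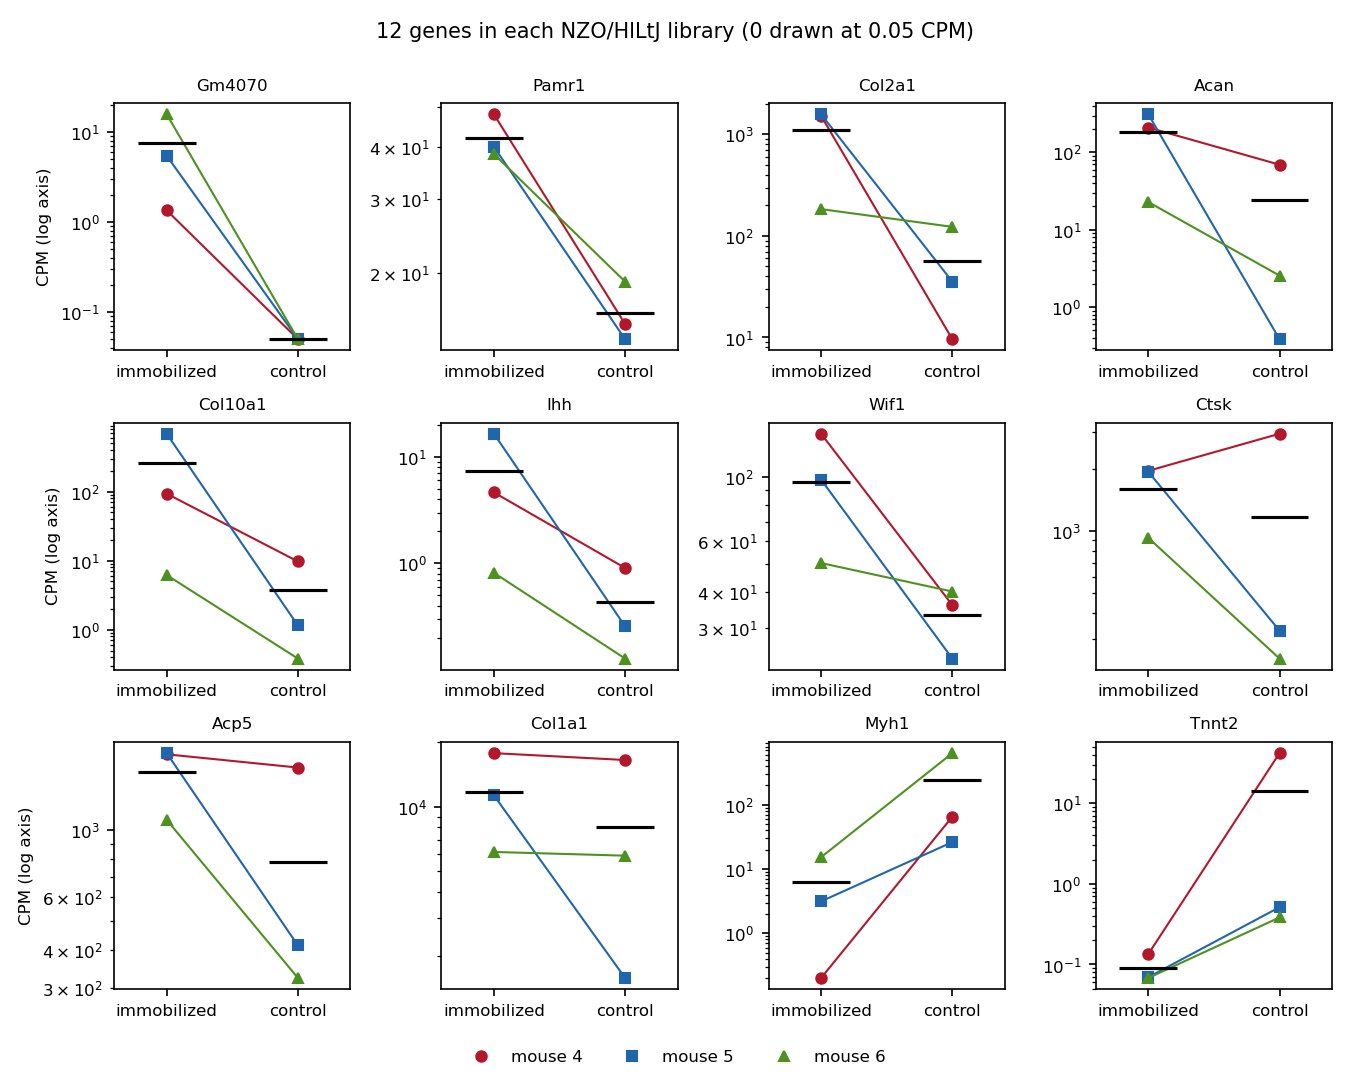
CPM of 12 genes (log axes) in the immobilized (left) and control (right) limb of NZO/HlLtJ mice 4, 5 and 6, joined by mouse, with the group mean as a bar and values of 0 drawn at 0.05 CPM. Gm4070, Pamr1, Col2a1 and Wif1 lie higher in all immobilized limbs, whereas Ctsk and Acp5 are high in the control limb of mouse 4 and low in the other 2 control limbs.

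Osteoclast genes depended on mouse 4. With all 3 mice 16 of 16 members were above 0, with a median log2 change of 0.62, 0 passed the FDR, and 4 had an unadjusted p under 0.05. Without mouse 4 the median was 1.03, beside -0.01 for all genes, 12 of 16 had an unadjusted p under 0.05, all of them higher, and again 0 passed. The list score was lower in the immobilized limb of mouse 4 by 0.06, and higher in mice 5 and 6 by 1.27 and 0.86.

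Ctsk (chromosome 3, 95499256 to 95509362), the protease with which osteoclasts cleave collagen, had 1950, 1930 and 926 CPM in immobilized limbs, against 2944, 330 and 242 CPM in control limbs. The control limb of mouse 4 was the highest of the 6, and in mice 5 and 6 both immobilized limbs exceeded both controls. Its log2 change was 1.35 ± 0.60 with 3 mice (edgeR FDR 1) and 2.22 ± 0.56 without mouse 4 (FDR 0.641). Acp5, the tartrate-resistant acid phosphatase, had 1785, 1801 and 1081 CPM in immobilized limbs, against 1613, 414 and 323 CPM in control limbs. Here too the separation was clear in mice 5 and 6 and small in mouse 4. Dcstamp (chromosome 15, 39745930 to 39760938), needed for fusion of osteoclast precursors, had 36.1, 31.2 and 14.8 CPM in immobilized limbs, against 54.3, 4.49 and 4.98 CPM in control limbs. Without mouse 4 its log2 change was 2.16 ± 0.40 (edgeR FDR 0.296), with the smallest p of the list. Atp6v0d2, a proton pump subunit of osteoclasts, and Oscar, an osteoclast receptor, had 2.03 ± 0.46 and 1.93 ± 0.52 in the same fit. Nfatc1, the transcription factor that drives the lineage, had 110, 106 and 86.9 CPM in immobilized limbs, against 137, 62.9 and 60.1 CPM in control limbs. Car2 and Itgb3, which red cell precursors and platelets also make, stood below 0 without mouse 4, with log2 changes of -0.40 ± 0.45 and -0.12 ± 0.29.

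Most of the signals that govern osteoclasts overlapped between limbs. Tnfsf11, encoding RANKL, the ligand osteoclast precursors need, had 6.58, 6.26 and 5.10 CPM in immobilized limbs, against 12.8, 2.43 and 3.70 CPM in control limbs. Tnfrsf11b, its decoy receptor osteoprotegerin, had 11.3, 15.4 and 5.23 CPM in immobilized limbs, against 41.9, 3.72 and 10.7 CPM in control limbs. For both genes the control limb of mouse 4 was the highest library. Of 10 osteoclast regulators 0 passed the FDR with or without mouse 4. Il1b, a cytokine that promotes resorption and inflammation, was the only one with non-overlapping limbs, at 18.5 to 31.6 CPM in immobilized limbs and 33.8 to 69.5 CPM in control limbs (log2 change -0.83 ± 0.32, edgeR FDR 1). Lower immobilized limbs without overlap were found for 2.69% of all genes tested.

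**Figure D3:**
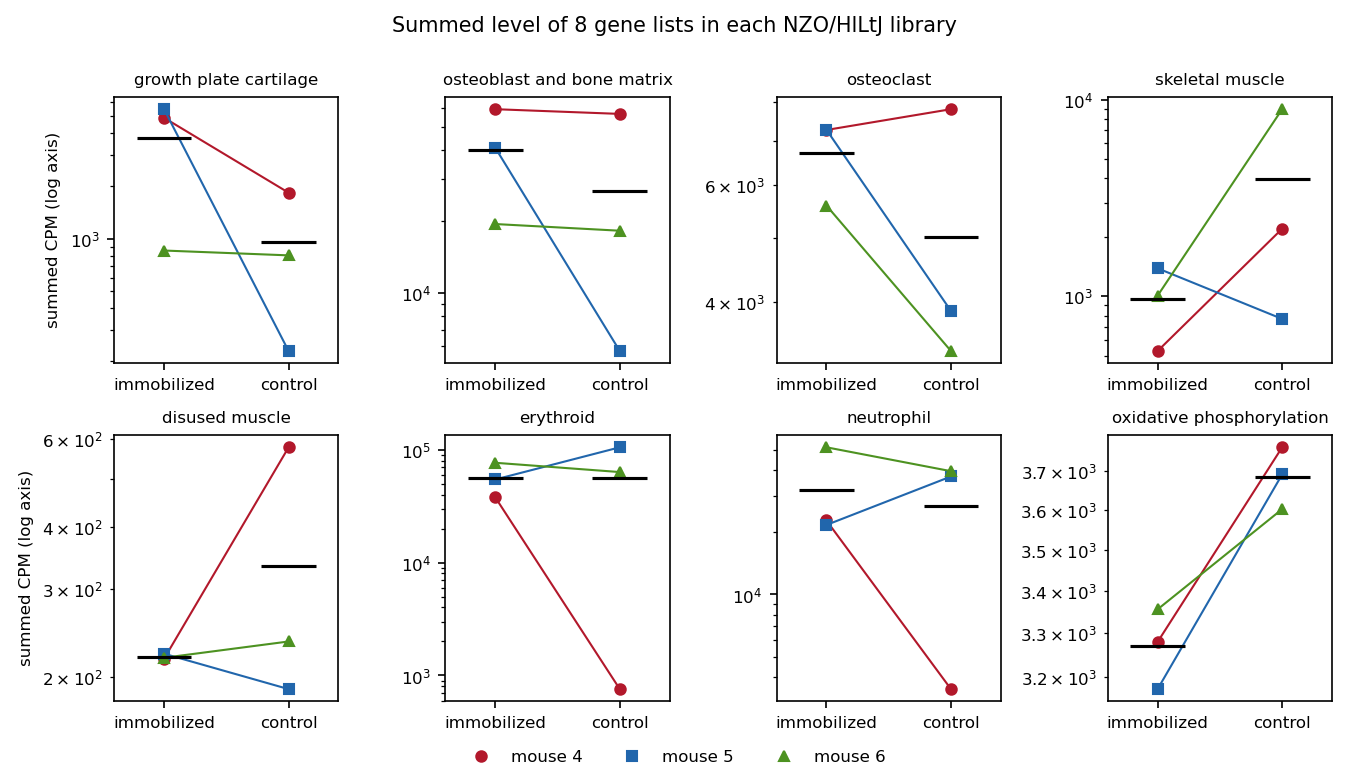
Summed CPM of 8 gene lists (log axes) in the immobilized (left) and control (right) limb of each NZO/HlLtJ mouse, joined by mouse, with the group mean as a bar. The control limb of mouse 4 is the lowest library for erythroid genes at 757 CPM, and the control limb of mouse 5 the lowest for bone matrix genes at 5725 CPM.

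Bone matrix genes were carried by mouse 5. Of 21 osteoblast and bone matrix genes 20 had a log2 change above 0, with a median of 0.83, and 0 passed the FDR. In mouse 5 all 21 were higher on the immobilized side, against 11 in mouse 4 and 9 in mouse 6. The list score differed by 0.09, 2.47 and -0.08 in mice 4, 5 and 6, and the median was 0.07 without mouse 5 and 1.09 without mouse 4. Col1a1, the major chain of bone collagen, had 17820, 11310 and 6144 CPM in immobilized limbs, against 16550, 1580 and 5903 CPM in control limbs. Mice 4 and 6 had nearly equal limbs, and the control limb of mouse 5 was the lowest library (log2 change 0.94 ± 0.59, edgeR FDR 1). Bglap, encoding the mineral-binding protein osteocalcin, had 1322, 553 and 280 CPM in immobilized limbs, against 223, 135 and 345 CPM in control limbs. It was higher on the immobilized side of mice 4 and 5 but not of mouse 6. Ibsp, bone sialoprotein, had 2434, 3389 and 510 CPM in immobilized limbs, against 3753, 139 and 247 CPM in control limbs, and had a log2 change of 2.81 ± 0.75 without mouse 4 (edgeR FDR 0.724). Collagen processing genes were higher in mouse 5 for 19 of 19 members and in mouse 4 for 1 of 19.

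Among 11 osteocyte genes 0 passed the FDR and the median log2 change was 0.62, or 0.97 without mouse 4. Sost, encoding the Wnt inhibitor sclerostin, had 39.6, 35.4 and 13.7 CPM in immobilized limbs, against 18.3, 1.67 and 19.4 CPM in control limbs. The limbs overlapped, since mouse 6 was lower on the immobilized side (log2 change 1.36 ± 0.82). Wif1 (chromosome 10, 121033960 to 121100650), a secreted protein that binds and blocks Wnt ligands, had 141, 97.96 and 50.4 CPM in immobilized limbs, against 36.1, 23.6 and 40.2 CPM in control limbs. All immobilized limbs were above all control limbs, with a log2 change of 1.46 ± 0.34 (edgeR FDR 0.832, DESeq2 FDR 0.0177), and 1.16 ± 0.41 without mouse 4. In NOD/ShiLtJ the same gene had 1.42 ± 0.33 (edgeR FDR 0.0164), and its difference between NZO/HlLtJ and the mean of the 6 others, 1.07, was not called (FDR 0.679). Notum, an enzyme that inactivates Wnt ligands, had 3.56, 2.64 and 1.29 CPM in immobilized limbs, against 2.04, 0.769 and 0.511 CPM in control limbs (log2 change 1.24 ± 0.37, edgeR FDR 1). Wnt4, a Wnt ligand, did not overlap, at 6.80 to 11.2 CPM in immobilized limbs and 4.74 to 5.74 CPM in control limbs. Axin2, a feedback inhibitor and transcriptional target of the pathway, had a log2 change of -0.06 ± 0.47, and the 12 Wnt list genes had a median of 0.00.

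Skeletal muscle genes were low in 2 of the 3 immobilized limbs relative to their own controls. Of 20 members 0 had a fitted log2 change above 0, with a median of -2.73, and 0 passed the FDR. The mice were unlike, however, since 20 of 20 members were lower in the immobilized limb of mouse 4 and of mouse 6, whereas 17 of 20 were higher in mouse 5. The list score differed by -5.08, 0.43 and -3.67 in mice 4, 5 and 6. The summed level was 528, 1390 and 1009 CPM in immobilized limbs, against 2209, 769 and 8947 CPM in control limbs. Without mouse 4 the median was -1.49.

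Of the 20 members, 3 had immobilized limbs that all lay below the control limbs. Myh1 (chromosome 11, 67200052 to 67224575), a fast myosin heavy chain of type IIX fibres, had 0.202, 3.13 and 15.2 CPM in immobilized limbs, against 64.8, 26.1 and 632 CPM in control limbs. Myh2, the myosin of oxidative fast fibres, had 0, 0.556 and 2.52 CPM in immobilized limbs, against 17.3, 8.97 and 219 CPM in control limbs. Mb, the oxygen store myoglobin, had 0.134, 2.78 and 14.1 CPM in immobilized limbs, against 41.8, 27.6 and 364 CPM in control limbs. For all 3 the lowest control value exceeded the highest immobilized value, and the log2 changes were -5.12 ± 1.37, -6.06 ± 1.63 and -4.77 ± 1.44 (edgeR FDR 1 each, DESeq2 FDR 0.00115, 0.00186 and 0.0177). Without mouse 4 they were -4.35 ± 1.62, -5.77 ± 2.05 and -4.09 ± 1.72. Myh4, the myosin of the fastest fibres, instead overlapped, at 1.01, 172 and 123 CPM in immobilized limbs, against 44.7, 18.5 and 605 CPM in control limbs. Outside the list, Actn2 and Mybpc1, of the Z disc and thick filament, did not overlap either, at 0.605 to 1.56 and 0.134 to 3.40 CPM in immobilized limbs and 4.49 to 58.5 and 7.82 to 225 CPM in control limbs. The slow troponin Tnni1 had 0.269, 0.278 and 0.340 CPM in immobilized limbs, against 31.1, 0.384 and 2.55 CPM in control limbs. Its limbs were close in mouse 5 but not in mouse 6. Non-overlap with lower immobilized limbs was found for 454 of all genes, or 2.69%.

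Genes of immature or denervated muscle were high in 1 library. Myh3, the embryonic myosin, had 0 CPM in all immobilized limbs, against 163, 1.03 and 2.17 CPM in control limbs. Myog, a transcription factor of muscle differentiation, had 0 CPM in all immobilized limbs, against 32.6, 0.384 and 0.255 CPM in control limbs. Chrna1, a subunit of the acetylcholine receptor, had 0.336, 0.209 and 0.408 CPM in immobilized limbs, against 42.5, 0.769 and 1.15 CPM in control limbs. The control limb of mouse 4 thus held nearly all of these transcripts, and it was the highest of the 6 for 11 of 14 disused muscle genes. Neither Myh3 nor Myog passed the FDR in edgeR, and the list median was -2.83 with mouse 4 and -0.87 without it. Tnnt2 (chromosome 1, 135836354 to 135852260), the troponin of heart and embryonic muscle, followed the same pattern, at 0.134, 0.0695 and 0.0680 CPM in immobilized limbs, against 41.8, 0.513 and 0.383 CPM in control limbs. The ubiquitin ligases of atrophy overlapped, with log2 changes of 0.04 ± 0.37 for Fbxo32 and -1.31 ± 1.02 for Trim63.

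The marrow lists had medians above 0 with all 3 mice and below 0 without mouse 4. Erythroid genes had a median log2 change of 1.14 with mouse 4 and -0.31 without it, and neutrophil genes 0.78 with it and -0.22 without. Mice 5 and 6 went opposite ways. On the immobilized side 0 of 15 erythroid and 0 of 16 neutrophil genes were higher in mouse 5, against 12 and 16 in mouse 6. The globin gene Hbb-bs had 15020, 20310 and 29330 CPM in immobilized limbs, against 233, 40250 and 23780 CPM in control limbs. Among the marrow-rich libraries the limbs overlapped, and mouse 5 was lower and mouse 6 higher on the immobilized side. Mpo, the myeloperoxidase of neutrophil precursors, had 1312, 1439 and 2686 CPM in immobilized limbs, against 84.1, 2251 and 2235 CPM in control limbs. No erythroid, neutrophil, B cell, plasma cell or megakaryocyte gene passed the FDR in either fit. Cxcl12, the retention factor of marrow stroma, was the steadier, at 1946 to 2254 CPM in immobilized limbs and 1423 to 2590 CPM in control limbs.

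Respiratory chain genes were slightly lower, as a list, on the immobilized side of all 3 mice, with score differences of -0.25, -0.22 and -0.14. All 21 oxidative phosphorylation genes had a log2 change below 0, with a median of -0.18. With skeletal muscle level as a covariate the median was 0.11. In mouse 5 the skeletal muscle score was higher on the immobilized side by 0.43, and 0 of 21 respiratory chain genes were higher there. Whether muscle content bears on these levels was not tested. In 16 of 21 the immobilized limb was lower in every mouse, a pattern not counted here over all genes. In 9 of 21 the groups did not overlap, as was the case in this direction for 454 of all 16882 genes, or 2.69%. Of the list, 0 passed the FDR or had an unadjusted p under 0.05. The list summed to 3280, 3173 and 3356 CPM in immobilized limbs, against 3761, 3690 and 3601 CPM in control limbs. Atp5a1, a subunit of the ATP synthase, had 637, 626 and 687 CPM in immobilized limbs, against 728, 734 and 737 CPM in control limbs. Sdhb, the iron-sulfur subunit of succinate dehydrogenase, had 90.2, 85.5 and 78.1 CPM in immobilized limbs, against 148, 105 and 96.4 CPM in control limbs. Both genes separated the limbs without overlap, by less than a factor of 2 in every mouse. Fatty acid oxidation genes had a median of -0.20, which was 0.01 with the same covariate.

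Fat storage genes, of interest in an obese strain, overlapped for the most part. Of 24 adipocyte genes 7 had a log2 change above 0, the median was -0.28, and 0 passed the FDR. The list score differed by 0.03, -0.77 and 0.08 in mice 4, 5 and 6, with 13, 1 and 15 of 24 members higher on the immobilized side, and the median without mouse 4 was -0.40. Adipoq, encoding the fat cell hormone adiponectin, had 74.0, 73.9 and 71.1 CPM in immobilized limbs, against 54.2, 111 and 62.3 CPM in control limbs. Cd36, a fatty acid carrier of fat, muscle and capillary cells, had 79.8, 99.9 and 114 CPM in immobilized limbs, against 172, 134 and 141 CPM in control limbs (log2 change -0.61 ± 0.23, edgeR FDR 1). Pparg, the transcription factor of fat cells, had 18.2, 16.4 and 17.3 CPM in immobilized limbs, against 20.1, 28.1 and 19.4 CPM in control limbs. Cd36, Pparg, Plin4 and Car3 were the 4 of 24 members whose immobilized limbs all lay below the control limbs. Over all genes tested that share was 2.69%.

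Macrophage genes had no common direction, with 9 of 16 above 0, a median log2 change of 0.09 and score differences of 0.39, -0.20 and 0.26 in mice 4, 5 and 6. The median was -0.19 without mouse 4. The 2 of 16 members without overlap were both lower, a pattern found for 2.69% of all genes tested. Adgre1, the macrophage surface protein F4/80, had 47.97, 43.0 and 46.6 CPM in immobilized limbs, against 98.1, 58.2 and 52.1 CPM in control limbs. Mrc1, the mannose receptor, had 110, 107 and 134 CPM in immobilized limbs, against 184, 152 and 149 CPM in control limbs. Neither overlapped and neither passed the FDR (log2 changes -0.55 ± 0.19 and -0.47 ± 0.19, edgeR FDR 1). The neutrophil-attracting chemokine Cxcl2 had 0, 0.139 and 0.136 CPM in immobilized limbs, against 49.4, 0.128 and 0 CPM in control limbs, so that 1 control library held almost all of it. The inflammation list had a median of -0.64 with mouse 4 and 0.11 without it. Ptgs2, the inducible cyclooxygenase, had 4.30, 106 and 1.02 CPM in immobilized limbs, against 32.8, 0.513 and 0.383 CPM in control limbs, with 1 high library on each side.

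**Figure D4:**
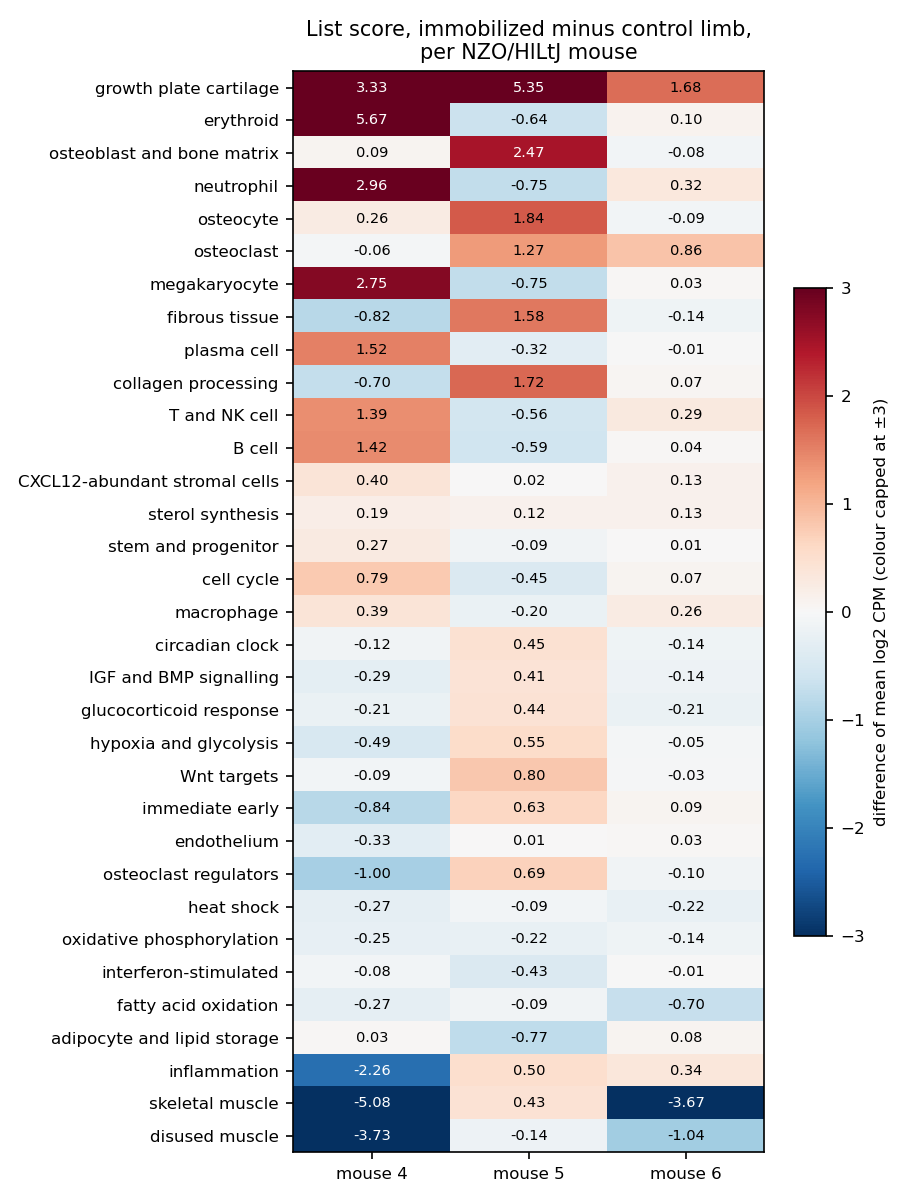
Difference of the list score (mean log2 CPM of the members), immobilized minus control, for 33 lists (rows, ordered by the fitted median) in NZO/HlLtJ mice 4, 5 and 6 (columns). Cartilage is above 0 in all 3 mice, bone matrix is high in mouse 5 alone, and skeletal muscle is below 0 in mice 4 and 6. Erythroid, neutrophil, B cell, plasma cell and megakaryocyte lists are far above 0 in mouse 4 and below 0 in mouse 5. In mouse 6 they lie at -0.01 to 0.32.

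The cast effect of NZO/HlLtJ was set against the mean effect of the 6 other strains with 3 pairs, to ask where this strain departed from them. Of 16882 genes, 2 differed at an FDR of 0.05 in edgeR, or 0.0118%, and 1220 had an unadjusted p under 0.05. Both were higher, Gm4070 (FDR 0.000271) and Pamr1. Pamr1 (chromosome 2, 102550012 to 102643041) encodes a secreted protease-like protein linked to muscle regeneration. It had 47.9, 40.1 and 38.5 CPM in immobilized limbs of NZO/HlLtJ, against 15.1, 13.8 and 19.0 CPM in their control limbs. The limbs were well apart in all 3 mice, and the strain's own log2 change was 1.41 ± 0.27 (edgeR FDR 0.51, DESeq2 FDR 0.00574). In the other 6 strains it was -1.50 to -0.26, and the difference was 1.96 ± 0.30 (edgeR FDR 0.0283). That call was lost when any 1 mouse was left out, with FDR values of 0.486, 0.0715 and 0.0949 without mice 4, 5 and 6, and with marrow level as a covariate (FDR 0.207).

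Cartilage, for which the strain had its largest median, was not called as different gene by gene in edgeR. The list median of 4.47 in NZO/HlLtJ stood beside -0.32 to 1.76 in the 6 others. Col2a1 averaged 1095 ± 789 CPM in immobilized limbs of NZO/HlLtJ and 56.0 ± 59.4 CPM in their control limbs (SD, n = 3 each). It averaged 389 ± 105 CPM in immobilized limbs of NOD/ShiLtJ and 150 ± 68.6 CPM in their control limbs, and 160 ± 34.2 CPM in immobilized limbs of WSB/EiJ and 409 ± 88.3 CPM in their control limbs. The difference from the other strains was 4.37 in log2, with an edgeR FDR of 0.679 and a DESeq2 FDR of 0.0451. Ctsk, by contrast, had a log2 change of 1.35 in NZO/HlLtJ, within the 0.30 to 2.62 of the 6 others, and a difference of -0.02 (edgeR FDR 1). These values include mouse 4, whose control limb was the highest Ctsk library of the strain. For the 16 osteoclast genes the median difference from the others was 0.08, and 0.44 without mouse 4. Brevican, Bcan, a proteoglycan, had 13.4, 8.90 and 1.56 CPM in immobilized limbs, against 20.3, 0.897 and 1.404 CPM in control limbs of NZO/HlLtJ. Only mouse 5 showed a gap, with the control limb of mouse 4 highest, and the log2 change of 0.70 ± 0.59 stood beside 3.84 ± 0.59 in NOD/ShiLtJ and 5.29 ± 0.68 in CAST/EiJ. That difference from the mean of the others, -2.45, was not called with all mice. Without mouse 5 it was -3.48 (edgeR FDR 0.0411). The fit without mouse 5 leaves out the only mouse with a gap and keeps the high control limb of mouse 4.

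**Figure D5:**
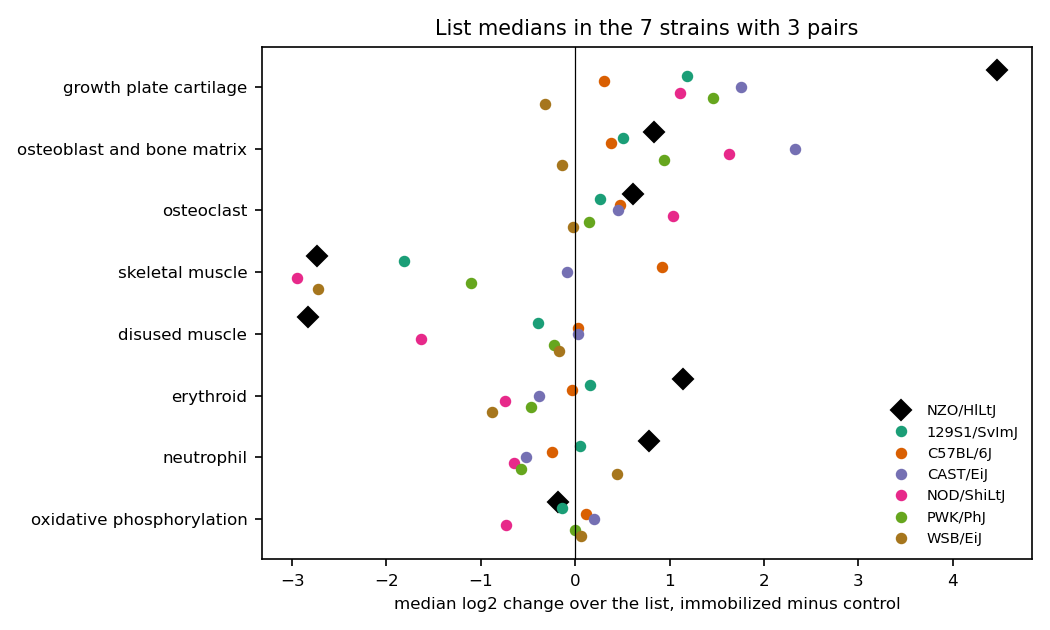
Median log2 change, immobilized minus control (horizontal axis), of 8 gene lists in NZO/HlLtJ (black diamonds) and in the 6 other strains with 3 pairs (coloured dots). NZO/HlLtJ lies apart to the right for cartilage at 4.47, and inside the range of the others for osteoclast, bone matrix and respiratory chain genes. It also lies outside the others for erythroid genes at 1.14, neutrophil genes at 0.78 and disused muscle genes at -2.83. Without mouse 4 these 3 medians were -0.31, -0.22 and -0.87.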

How the data were processed

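RNA of the tibial metaphysis was sequenced as paired-end, stranded mRNA libraries, per the labels' protocols. The authors deposited 1 table of raw read counts per gene, not normalized, for 48 libraries. featureCounts, DESeq2 and mm10 are named in the submitters' processing notes. The aligner, annotation and strand setting are not stated in the sources used here. Because mm10 derives from C57BL/6J, NZO/HlLtJ reads were assigned against another strain's genome.

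The quasi-likelihood test of edgeR 4.0.16 (R 4.3.3), in its robust form with TMM scaling and the filterByExpr minimum, was run on 44 libraries of 22 mice. Of A/J, 2 control libraries with 2335 and 50 counts and their partners were left out. Mice and the limb effect within each strain were the terms of the model. All strains share the estimate of spread. Each mouse gave both limbs, per the series design. The correlation of the limbs' deviations was 0.53, -0.26 and 0.49 for mice 4, 5 and 6. Over the 21 mice of all strains with 3 pairs its median was 0.09, and it was above 0.1 in 10. Log2 changes are immobilized minus control with their SE. CPM were computed from the deposited counts with TMM-scaled library sizes, with 2 exceptions. A limit of 3 counts stands for a count of 0, for counting error only, and was turned into CPM with plain library totals. Plain totals were also used for the medians of other strains given for genes without a count in control limbs. The fold of Gm4070 divides a TMM-scaled mean by that limit. The prior count was 2 for list scores.

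Named genes were drawn from those past the FDR and from members of 33 lists. Also drawn on, in each direction, were the 10 with the smallest p among genes with mean CPM of at least 5 and non-overlapping limbs. The 8 in each direction with the smallest p for the strain difference, at the same minimum mean, were added. Predicted genes were left out of these last sets, and not every gene of the sets is named in the text. Gvin1 and Bcan were chosen after their values were seen. The members and lists were chosen with earlier results of these data known. Alternatives were RLE scaling, no filter, DESeq2 1.42.0, no mouse term, all 48 libraries, thinned counts, muscle and marrow covariates, the 6 libraries alone, and each mouse left out. Scripts were tested on simulated data. Coordinates come from GENCODE M21 (GRCm38), in which 31374 of 32544 gene names were found, and 27 names had been turned into dates.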

Additional observations from a re-analysis of the deposited data

Results flagged for a closer look

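The cast effect on Gm4070 differed between NZO/HlLtJ and the mean of the 6 other strains with 3 pairs (edgeR FDR 0.000271). It was read in 3 of 3 immobilized and 0 of 3 control limbs of NZO/HlLtJ, and its FDR was 0.0452 without mouse 6. The cast effect on Pamr1 differed likewise, by 1.96 ± 0.30 in log2 (edgeR FDR 0.0283), with the immobilized limb higher in 3 of 3 NZO/HlLtJ mice. The Pamr1 call was lost when any NZO/HlLtJ mouse was left out, without the mouse term and with marrow level as a covariate. In A/J, with 1 pair and outside that mean, the log2 change of Pamr1 was 0.37. With A/J taken into the mean, only 1 gene was called.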

How the results depend on the processing

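For the cast effect, 1 gene was called with all 3 mice, and 1 also without the replicate block (no mouse term), with RLE scaling, no filter, all 48 libraries and either covariate. DESeq2 called 18, thinned counts 2 (Gm4070 and Tnnt2), the 6 libraries alone 0, and leaving out each mouse 0 to 1. Gm4070 had FDR values of 2.26e-06 to 1 over these settings, the highest being with the 6 libraries alone. For the difference from other strains, 2 were called. The count was 1 without the block, where Pamr1 had an FDR of 0.219, 1 with the marrow covariate, 1 with A/J in the mean, 4 with DESeq2, 3 with thinned counts (Tnnt2 besides), and 1 to 5 without each mouse. For the cast effect without mouse 4, the count was 1 with all 48 libraries, without the block and with RLE scaling. Of the single-gene values under alternatives 427 kept their side of the threshold, 16 came to pass it and 8 no longer did. Of the list medians 251 stayed within the spread of the mice and 13 moved, and the cause was not tested. The cartilage median was 3.67 to 5.08 without each mouse. Depth limits control limbs most, since their totals are lower.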

Other observations

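Gm4070 was among 10 genes with no count in the 3 control limbs of NZO/HlLtJ and a median of at least 5 CPM in the other strains. Of these, 7 had a count in an immobilized limb. Gm6768 had 9, 0 and 19 counts in the immobilized limbs of mice 4, 5 and 6, and its median in other strains was 189 CPM. Gm12191 had 0, 11 and 2 counts there, with 137 CPM in other strains. AK157302 had 3, 0 and 3 counts, with 18.3 CPM in other strains. Gm10288, BC049730 and Gm14303 had 0 counts in all 6 libraries. In the reverse direction, 4 genes had no count in the immobilized limbs, of which 1 had a count in a control limb. The immobilized libraries were deeper, and the part of depth in these counts was not tested.

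Galactokinase, Galk1, had 25.7, 28.0 and 24.7 CPM in immobilized limbs of NZO/HlLtJ, against 36.0, 33.7 and 22.2 CPM in control limbs. Its log2 change was -0.20 ± 0.14 here (edgeR FDR 1), beside 0.69 ± 0.14 in CAST/EiJ and 0.72 ± 0.14 in NOD/ShiLtJ, and the difference from the mean of the others was not called (-0.69 ± 0.15, edgeR FDR 0.627). Sfrp2, a secreted Wnt-binding protein, had 10.95, 2.92 and 2.24 CPM in immobilized limbs, against 56.8, 2.05 and 1.53 CPM in control limbs. The control limb of mouse 4 was far above the others, and DESeq2 alone called its difference from other strains (-2.59, FDR 0.0468). Igkv6-15, an antibody light chain segment, had 1.81, 29.6 and 8.77 CPM in immobilized limbs, against 0.339, 3.59 and 4.34 CPM in control limbs, higher on the immobilized side of all 3 mice (log2 change 2.09 ± 0.66, edgeR FDR 1).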
